A study of Mus musculus with 18 samples.

Results

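Functional integrin β3 was compared with an empty vector in PyMT-BO1 cells that had not received a cytotoxic drug. PyMT-BO1 is a mouse breast cancer line on the C57BL/6 background, described by the labels as luminal B-like. In every cell compared here the integrin β3 gene had been knocked out, and a retrovirus then delivered functional human integrin β3 (hβ3 cells) or the empty vector pMx (pMx cells). All cultures of the comparison received DMSO, the solvent of docetaxel, for 24 h. It rests on 6 of the 18 libraries of the series, 3 biological replicates of hβ3 cells and 3 of pMx cells, chosen by their construct and treatment labels and by no measured value. The other 12 libraries were used only beside it. They came from knockout cells rescued with a signalling-deficient integrin β3 (Δβ3 cells) in DMSO, and from all 3 lines after 24 h in 10 nM docetaxel, a drug that stabilises microtubules. The labels describe 1 line per construct, so a difference between hβ3 and pMx cells cannot be told apart from a difference between these 2 lines. The p-values set a difference against the spread between cultures of a line, not between lines.

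Integrins are adhesion receptors made of an α and a β chain. Integrin β3 pairs with αv in many adherent cells and with αIIb in platelets, and αvβ3 binds matrix proteins that carry an RGD sequence, such as vitronectin, osteopontin, fibronectin and thrombospondins. Its cytoplasmic tail recruits talin and kindlin, which connect it to actin, and signals through focal adhesion kinase and Src. In breast cancer αvβ3 is known for its association with bone metastasis, and in tumour cells integrin signalling feeds into the MAPK, TGFβ and YAP pathways.

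The hβ3 libraries held 16299167 to 18961392 counts and the pMx libraries 10313222 to 14154246. The ribosomal RNA precursor Rn45s took 27.5%, 10.9% and 33.0% of the counts of hβ3 cultures 1, 2 and 3, against 9.81%, 9.43% and 8.36% in pMx cultures 1, 2 and 3. The 10 heart muscle transcripts followed here (Myh6, Myh7, Tnni3, Myl2, Myl3, Myl7, Actc1, Mybpc3, Nppa and Tnnc1) summed to 286, 354 and 156 CPM (counts scaled to a common library size) in the hβ3 cultures and to 1469, 979 and 293 CPM in the pMx cultures. They are part of a list of 40 heart genes that includes Ankrd1, described below. The whole list summed to 1641, 1794 and 1357 CPM in hβ3 cultures 1, 2 and 3. In pMx cultures 1, 2 and 3 it summed to 3247, 2311 and 979 CPM, so pMx culture 3 was below every hβ3 culture. Of the markers of other cell types, fibroblast genes summed to 14.6 to 23.6 CPM in hβ3 and 25.8 to 76.0 CPM in pMx cultures, and endothelial genes to 4.40 to 7.19 CPM in hβ3 and 7.03 to 28.6 CPM in pMx cultures. Leukocyte genes summed to 4.26 to 9.30 CPM in hβ3 and 6.83 to 18.6 CPM in pMx cultures, and Ptprc and Adgre1 had 0 counts in all 6. These sums were highest in pMx cultures 1 and 2, where the heart transcripts were also highest, and their part in the results below was not tested. Of 17 luminal markers only 4 passed the filter on low counts. Krt8 had 1134, 1117 and 1089 CPM in hβ3 cultures and 1304, 1508 and 1370.5 CPM in pMx cultures, while the epithelial cadherin Cdh1 stayed at 1.70 CPM or lower in all 6 and Krt19, Gata3, Elf3, Pgr, Kit, Cldn3 and Cldn4 had 0 counts. Counts were given per transcript model, and reads of some genes with several models may be missing, which was not tested. Gapdh, with 2 models, had 3.46, 5.95 and 2.63 CPM in hβ3 and 1.82, 3.06 and 3.68 CPM in pMx cultures. A low value thus does not show that a gene is silent, and levels of different genes are not compared. Values below 1 CPM rest on few counts, and folds built on them, here and below, are uncertain. CPM values throughout were scaled with TMM (trimmed mean of M values) factors over all 18 libraries.

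**Figure D1:**
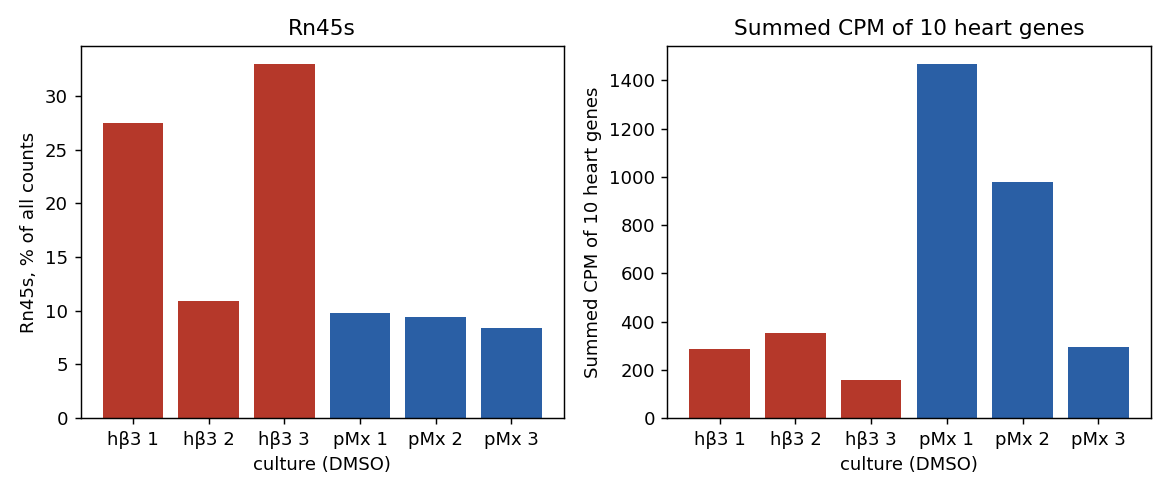
Make-up of the 6 libraries: the share of counts on Rn45s (percent) and the summed level of the 10 heart muscle transcripts (CPM), 1 bar per culture, with hβ3 cultures left of pMx cultures. The heart transcripts reached 1469 CPM in pMx culture 1, and Rn45s reached 33.0% in hβ3 culture 3.

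The mouse Itgb3 gene (chromosome 11, 104608000 to 104670476, plus strand, mm10) had 123, 72.2 and 131 CPM in hβ3 cultures and 1.3, 1.27 and 0.322 CPM in pMx cultures. Every hβ3 culture was above every pMx culture, with a log2 difference of 6.82 ± 0.49 (hβ3 minus pMx, here and below; estimate ± SE; adjusted p = 5.12e-04). The Δβ3 cells had 66.6, 113 and 110.3 CPM. Reads were counted on the mouse genome and the hβ3 construct is human, so these values separate the lines with and without a construct but say nothing of how much construct RNA was made.

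Of 10792 gene symbols that passed the filter on low counts, 2835 (26.3%) differed between hβ3 and pMx cells at a Benjamini-Hochberg adjusted p under 0.05 in edgeR's quasi-likelihood test, the threshold for every call below. Of these, 1448 (13.4%) were higher in hβ3 cells and 1387 (12.9%) lower. Changes of at least 2-fold were fewer upward, 342 (3.17%), than downward, 528 (4.89%). The CPM ranges of the lines did not overlap for 4396 symbols (40.7%), so ranges that do not overlap were common here. The median log2 difference over all tested symbols was -0.00, and the biological coefficient of variation between cultures was 13.8%. Correlations of log2 CPM ran from 0.984 to 0.993 between cultures of a line and from 0.965 to 0.978 between cultures of different lines. In 1 fit over all 18 libraries, where the spread includes the Δβ3 and docetaxel cultures, 1095 symbols were called.

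Promoter sequence is shown for 5 genes that were higher in hβ3 cells and that recur below: the WNT ligand gene Wnt7a, the YAP target genes Cyr61 and Ankrd1, the NF-κB feedback gene Tnfaip3 and the calcium-binding protein gene S100a11. Each run is the 250 bases before the annotated start of the gene in RefSeq on GRCm38.p6, 5′ to 3′ on the strand of the gene. Capitals mark GGAATG, the core that TEAD factors bind, or TGANTCA, the AP-1 site, on either strand. The 5 windows were chosen after the values and the matches had been seen, and a match is a description of the letters, not a bound site.
Wnt7a, chr6:91411354-91411603, minus strand: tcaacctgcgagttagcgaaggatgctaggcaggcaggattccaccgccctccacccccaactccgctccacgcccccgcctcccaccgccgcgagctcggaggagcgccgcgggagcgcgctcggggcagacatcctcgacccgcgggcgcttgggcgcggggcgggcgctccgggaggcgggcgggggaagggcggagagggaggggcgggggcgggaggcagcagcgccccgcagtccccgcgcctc
Cyr61 (Ccn1 in RefSeq), chr3:145649986-145650235, minus strand: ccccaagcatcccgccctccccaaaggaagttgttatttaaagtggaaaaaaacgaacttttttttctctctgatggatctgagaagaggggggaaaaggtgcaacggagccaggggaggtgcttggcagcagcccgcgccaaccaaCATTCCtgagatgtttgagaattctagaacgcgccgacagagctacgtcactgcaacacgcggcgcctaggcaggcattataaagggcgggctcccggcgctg
Ankrd1, chr19:36119845-36120094, minus strand: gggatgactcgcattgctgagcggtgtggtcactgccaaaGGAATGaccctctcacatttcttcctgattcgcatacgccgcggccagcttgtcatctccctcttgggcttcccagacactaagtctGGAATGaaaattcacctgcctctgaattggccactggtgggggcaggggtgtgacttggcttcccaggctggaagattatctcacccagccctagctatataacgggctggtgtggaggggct
Tnfaip3, chr10:19015411-19015660, minus strand: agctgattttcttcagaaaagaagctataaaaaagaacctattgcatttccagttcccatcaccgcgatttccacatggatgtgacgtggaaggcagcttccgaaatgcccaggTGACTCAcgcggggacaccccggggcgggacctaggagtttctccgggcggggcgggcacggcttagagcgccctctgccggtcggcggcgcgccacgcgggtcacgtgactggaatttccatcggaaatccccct
S100a11, chr3:93520246-93520495, plus strand: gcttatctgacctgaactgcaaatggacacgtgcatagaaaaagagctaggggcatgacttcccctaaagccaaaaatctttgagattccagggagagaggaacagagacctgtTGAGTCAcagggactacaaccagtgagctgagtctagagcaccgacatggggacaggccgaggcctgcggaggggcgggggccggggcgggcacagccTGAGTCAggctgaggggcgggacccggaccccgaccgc
The Wnt7a window held neither pattern. The Cyr61 window held CATTCC, the reverse complement of GGAATG, 103 bases before the start, and the Ankrd1 window held GGAATG 210 and 123 bases before it. The Tnfaip3 window held TGACTCA 136 bases before the start, and the S100a11 window held TGAGTCA at 136 and 38 bases. Of the windows of the 232 symbols called and at least 2-fold higher in hβ3 cells, 10.34% held TGANTCA, against 5.946% of the 370 at least 2-fold lower and 4.285% of all 7515 tested symbols that have a window. GGAATG was present in 13.36% of the higher, 11.62% of the lower and 10.57% of all windows. The RBPJ core TGGGAA was present in 21.98% of the higher, 23.51% of the lower and 20.07% of all windows. The CArG box of SRF, in a strict spelling, was present in 0% of the higher, 0.2703% of the lower and 0.09315% of all windows, and a looser spelling that contains it was present in 4.31%, 2.162% and 1.357% of these same sets. These were the 5 patterns searched, on both strands. No test was made of these shares.

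Among genes higher in hβ3 cells, the WNT ligand gene Wnt7a (chromosome 6, 91363981 to 91411363, minus strand) had the largest log2 difference of all genes named by the rule given with the processing. It had 137, 122 and 131 CPM in hβ3 cultures and 0.433, 0.637 and 0.258 CPM in pMx cultures, where it rested on 5, 10 and 4 counts. The log2 difference was 8.15 ± 0.18 (adjusted p = 3.65e-13). This SE is derived from the test statistic, and with so few pMx counts it understates the uncertainty of the fold. The rule asked for separate ranges of the lines, so separate ranges of the genes it named, here and below, were fixed by the choice. The psoriasin-related gene S100a7a (chromosome 3, 90654017 to 90658669, plus strand) had 56.9, 57.2 and 54.2 CPM in hβ3 and 2.25, 1.15 and 1.23 CPM in pMx cultures, a log2 difference of 5.21 ± 0.19 (adjusted p = 3.68e-11). Tgfa (chromosome 6, 86195223 to 86275719, plus strand), a ligand of the EGF receptor, had 33.5, 31.7 and 34.3 CPM in hβ3 and 0.519, 1.66 and 0.967 CPM in pMx cultures, a difference of 4.90 ± 0.24 (adjusted p = 1.87e-09). For both genes the hβ3 cultures lay close together and far above all pMx cultures. The caveolar coat gene Sdpr had 1630.5, 1648 and 1562 CPM in hβ3 and 205, 194 and 170.3 CPM in pMx cultures (log2 difference 3.07 ± 0.09, adjusted p = 5.20e-12). Ddah1, which degrades the nitric oxide synthase inhibitor dimethylarginine, had 53.2, 61.4 and 61.1 CPM in hβ3 and 5.37, 7.32 and 6.25 CPM in pMx cultures (3.19 ± 0.14, adjusted p = 2.13e-10). Aif1l, an actin-bundling protein gene, had 46.6, 52.8 and 49 CPM in hβ3 and 6.32, 5.03 and 5.29 CPM in pMx cultures (3.15 ± 0.13, adjusted p = 2.05e-10). In each of these 3 genes the ranges of the lines were far apart. Vgll3, a cofactor of TEAD factors, had 4.23, 5.21 and 8.09 CPM in hβ3 and 0.692, 0.764 and 0.58 CPM in pMx cultures (3.07 ± 0.33, adjusted p = 5.15e-06). The mitochondrial carrier Slc25a48 with 3, 2 and 1 counts, the mesothelin gene Msln with 1, 2 and 4 and the metalloprotease Adam12 with 1, 1 and 1 in pMx cultures 1, 2 and 3 are given without a fold. In hβ3 cultures Slc25a48 had 12.7, 7.19 and 20.5 CPM, Msln 5.96, 6.45 and 7.17 CPM and Adam12 3.39, 1.74 and 2.84 CPM. The other 5 genes named by the rule, AU018091, Ptprq, Acpp, C3ar1 and Tnfaip3, had between 4.22 and 7.38 CPM in hβ3 cultures and at most 1.30 CPM in pMx cultures. Antisense genes overlap Tgfa and Aif1l, and no source used here gives the strand setting of the counting, so reads of the partners cannot be told apart.

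**Figure D2:**
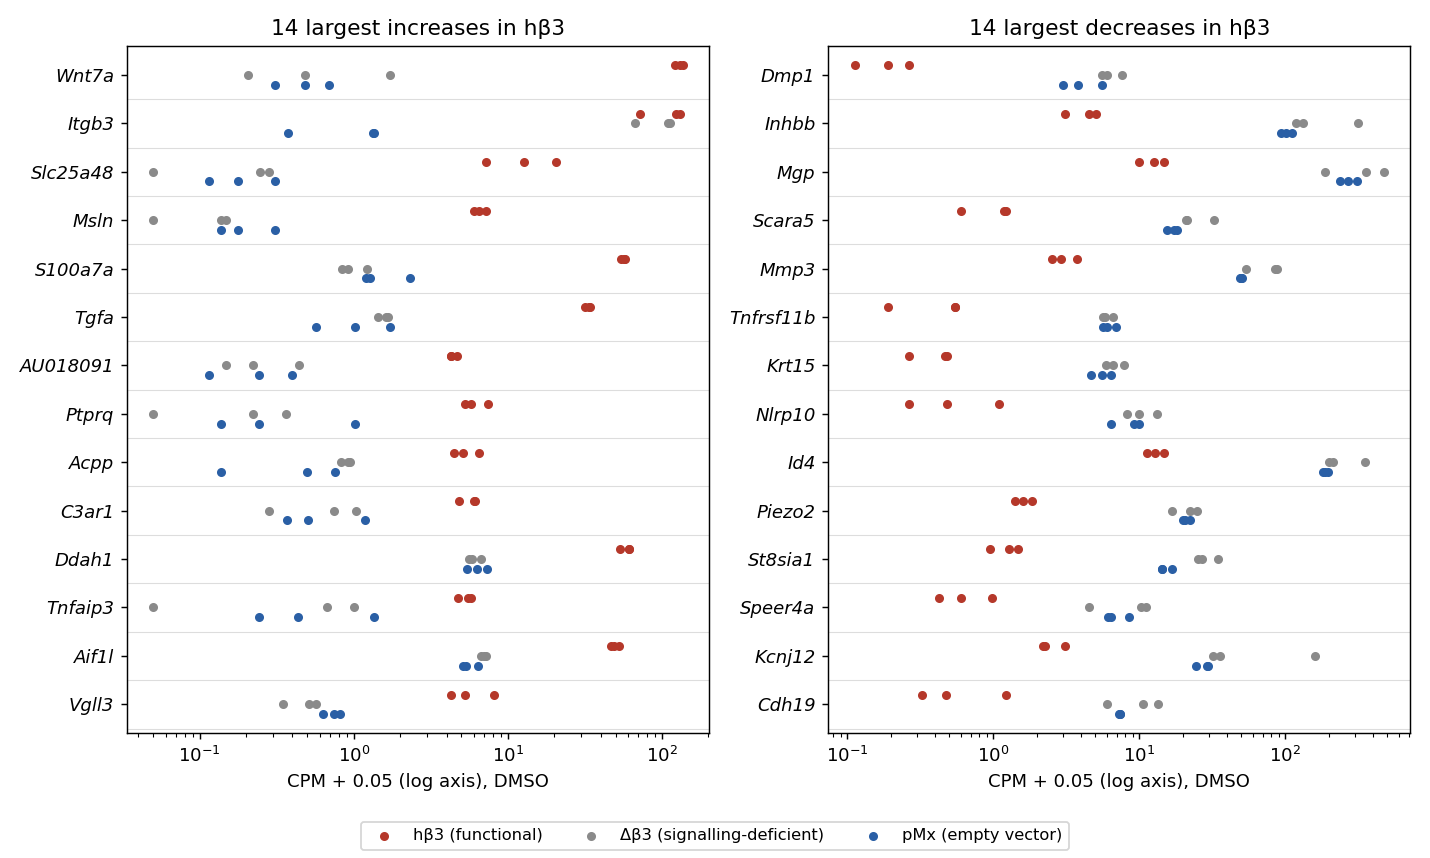
The 14 genes with the largest increase (left panel) and the 14 with the largest decrease (right panel) in hβ3 cells by the rule for named genes, as CPM + 0.05 on a log axis in DMSO, 1 point per culture, with hβ3 above Δβ3 and pMx points in each row. Wnt7a, S100a7a and Tgfa are high in the hβ3 cultures alone, while Inhbb, Mgp and Mmp3 are high in the pMx and Δβ3 cultures.

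Among genes lower in hβ3 cells, Inhbb (chromosome 1, 119415465 to 119422248, minus strand), which encodes the βB chain of activin and inhibin, had 3.05, 4.46 and 4.97 CPM in hβ3 cultures and 101, 110.4 and 92.7 CPM in pMx cultures. The log2 difference was -4.62 ± 0.15 (95% interval -4.95 to -4.30, adjusted p = 1.76e-11), and separate ranges were again asked for by the rule. The matrix Gla protein gene Mgp (chromosome 6, 136872435 to 136875823, minus strand), an inhibitor of calcification and of BMP signalling, had 12.6, 14.7 and 9.86 CPM in hβ3 and 238, 267 and 311 CPM in pMx cultures, a difference of -4.47 ± 0.15 (adjusted p = 1.03e-09). The stromelysin gene Mmp3 (chromosome 9, 7445822 to 7455975, plus strand) had 3.67, 2.48 and 2.84 CPM in hβ3 and 50.2, 50 and 49 CPM in pMx cultures, a difference of -4.07 ± 0.15 (adjusted p = 5.14e-11). Mmp3 varied little among pMx cultures, and every hβ3 culture was below all of them. The ferritin receptor Scara5 had 0.554, 1.18 and 1.14 CPM in hβ3 and 17.1, 18.1 and 15.5 CPM in pMx cultures (-4.14 ± 0.24, adjusted p = 7.32e-09), and the keratin gene Krt15 had 0.416, 0.434 and 0.213 CPM in hβ3 and 4.59, 6.31 and 5.48 CPM in pMx cultures (-3.92 ± 0.33, adjusted p = 4.23e-07). The mechanically gated channel Piezo2 had 1.8, 1.55 and 1.35 CPM in hβ3 and 20, 20.6 and 22.2 CPM in pMx cultures (-3.75 ± 0.18, adjusted p = 9.79e-10). The ganglioside synthase St8sia1 had 0.901, 1.24 and 1.42 CPM in hβ3 and 16.8, 14.2 and 14.2 CPM in pMx cultures (-3.67 ± 0.22, adjusted p = 9.23e-09). The adhesion molecule Cdh19 had 0.277, 1.18 and 0.426 CPM in hβ3 and 7.36, 7.2 and 7.29 CPM in pMx cultures (-3.50 ± 0.35, adjusted p = 3.51e-06). In both genes the lowest pMx culture was above the highest hβ3 culture by several-fold. Netrin-1 (Ntn1), a guidance ligand chosen after its values were seen, had 29.9, 38.5 and 33.8 CPM in hβ3 and 266, 276 and 228 CPM in pMx cultures (-2.93 ± 0.11, adjusted p = 5.60e-11). The potassium channel gene Kcnj12 had 2.15, 3.04 and 2.2 CPM in hβ3 and 24.5, 29.6 and 29.2 CPM in pMx cultures (-3.50 ± 0.18), and 159, 32.1 and 35.7 CPM in the Δβ3 cultures, of which culture 1 held 3962 CPM of the heart transcripts. Speer4a (-3.51 ± 0.32) has near-identical copies in the mouse genome, and its value is uncertain.

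Of 28 integrin subunit genes, 12 were tested, and 4 were higher and 1 lower in hβ3 cells, with a median log2 difference of 0.30. Itgb3 itself is one of the 4. For this and every list below, the shares over all tested symbols were 13.4% higher, 12.9% lower and 40.7% with separate ranges. No list was tested against these shares. List members are named for a small p in this comparison, by the rule above, outright or after their values were seen. A small p and the rule favour separate ranges, so separate ranges of named members, here and below, are descriptions and add no support. Itga3, a laminin receptor chain, had 10.6, 9.55 and 10.1 CPM in hβ3 and 4.85, 3.95 and 5.22 CPM in pMx cultures (1.09 ± 0.18, adjusted p = 4.07e-04), and Itgb7 had 947, 900.3 and 885 CPM in hβ3 and 559.8, 558 and 541 CPM in pMx cultures (0.70 ± 0.07, adjusted p = 3.52e-06). Neither gene overlapped between the lines. The collagen receptor chain Itga2 had 15, 16.2 and 14 CPM in hβ3 and 6.58, 10.1 and 7.42 CPM in pMx cultures (0.89 ± 0.18, adjusted p = 0.00153), and in the fit over 18 libraries its adjusted p was 0.155. The αv partner Itgav had 645, 583 and 688 CPM in hβ3 and 584, 535 and 479 CPM in pMx cultures, with overlapping ranges and a difference of 0.24 ± 0.09 (95% interval 0.05 to 0.44, adjusted p = 0.0599). Itgb1 had 85.4, 108 and 86.1 CPM in hβ3 and 78.4, 76.8 and 74.5 CPM in pMx cultures (0.27 ± 0.10, adjusted p = 0.0663). Neither Itgav nor Itgb1 passed the test. Itga2b was at 1.12 CPM or lower in all 6 cultures and was not tested, and Itgb5 is listed at 0 in all 6. The single lower subunit, Itga1, was not called without hβ3 culture 1, without pMx culture 1 or without pMx culture 2.

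Of 26 genes for ligands of αvβ3, 13 were tested, and 3 were higher and 7 lower in hβ3 cells (median log2 difference -0.74). The matricellular genes Cyr61 and Ctgf were among the 3 higher and are described with the YAP targets. Thbs2 (chromosome 17, 14665500 to 14694235, minus strand), which encodes the anti-angiogenic matrix protein thrombospondin-2, had 364, 339 and 358 CPM in hβ3 cultures and 3293, 3155 and 3182 CPM in pMx cultures. The lines were far apart, with a log2 difference of -3.20 ± 0.08 (95% interval -3.37 to -3.03, adjusted p = 8.74e-13). Fibronectin (Fn1) had 8.73, 6.57 and 12.6 CPM in hβ3 and 17.7, 18.3 and 23.3 CPM in pMx cultures (-1.11 ± 0.21, adjusted p = 0.00161), and the call was lost when only the transcript model with the most counts was used (adjusted p = 0.0579). Osteopontin (Spp1) had 0.831, 0.93 and 0.78 CPM in hβ3 and 1.9, 2.87 and 2.77 CPM in pMx cultures (-1.58 ± 0.33, adjusted p = 0.00229). Vitronectin (Vtn) had 0.485, 0.372 and 0.142 CPM in hβ3 and 2.94, 2.17 and 0.838 CPM in pMx cultures (-2.53 ± 0.55, adjusted p = 0.00302), with 0.534 in the 18-library fit. The Vtn fold rests on few counts in hβ3 cultures. Among pMx cultures Vtn was lowest in culture 3, where the heart transcripts were also lowest, and it was at 6.91 CPM in Δβ3 culture 1. Dmp1, a bone matrix protein with an RGD motif, had 0.139, 0.062 and 0.213 CPM in hβ3 and 2.94, 5.54 and 3.74 CPM in pMx cultures (adjusted p = 1.64e-06). Its hβ3 values rest on very few counts, so it is given without a fold.

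Of 47 genes of the adhesion complex, 35 were tested, and 12 were higher and 3 lower in hβ3 cells (median 0.28, against 26.3% of all tested symbols called). Tensin-3 (Tns3), which binds the tails of β integrins, had 153, 126 and 143 CPM in hβ3 and 61.5, 52.3 and 48.9 CPM in pMx cultures (1.36 ± 0.11, adjusted p = 2.04e-07), with no overlap. Vinculin (Vcl), which joins talin to actin, had 643, 695 and 716 CPM in hβ3 and 518, 490.5 and 496 CPM in pMx cultures (0.43 ± 0.07, adjusted p = 5.22e-04). The Src substrate p130Cas (Bcar1) had 11.2, 9.98 and 9.58 CPM in hβ3 and 5.45, 6.56 and 4.96 CPM in pMx cultures (0.84 ± 0.18, adjusted p = 0.00299, and 0.0619 with 18 libraries). Focal adhesion kinase (Ptk2) had 2.08, 2.05 and 2.7 CPM in hβ3 and 1.56, 0.892 and 1.03 CPM in pMx cultures, and zyxin (Zyx) had 7.83, 5.77 and 5.68 CPM in hβ3 and 4.59, 3.06 and 4.51 CPM in pMx cultures. Both passed narrowly, with adjusted p of 0.0451 for Ptk2 and 0.0473 for Zyx, and with 18 libraries these were 0.214 and 0.238. Ptk2 also lost its call without hβ3 culture 1 or 3 or pMx culture 2 or 3, and Zyx without any single culture but hβ3 culture 2. With other processing choices counted too, Ptk2 lost the call under 6 and Zyx under 10 of 16 alternatives. The caveolin gene Cav1 had 50.2, 76.1 and 43.6 CPM in hβ3 and 30.3, 31.3 and 31.3 CPM in pMx cultures (0.85 ± 0.19, adjusted p = 0.00911) and also lost its call without pMx culture 1. Lower in hβ3 cells were the adaptor Shc1, with 13.6, 14.3 and 16.8 CPM in hβ3 and 37.9, 33.3 and 36.2 CPM in pMx cultures (-1.28 ± 0.12, adjusted p = 1.94e-06), and the Rac activator Dock1, with 18.8, 24.8 and 19.7 CPM in hβ3 and 41, 37.9 and 38.4 CPM in pMx cultures (-0.90 ± 0.12, adjusted p = 6.50e-05). Ptk2, Zyx and Bcar1 were chosen after their values were seen.

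SRF and YAP are transcriptional regulators that respond to actin and to cell tension, SRF through the cofactor MRTF and YAP through TEAD. Of 31 listed target and pathway genes, 26 were tested, and 13 were higher and 2 lower in hβ3 cells, with a median of 0.37. The lower count was 4 without pMx culture 3. Cyr61 had 365, 365 and 395 CPM in hβ3 cultures and 62.3, 67.1 and 69.1 CPM in pMx cultures (2.48 ± 0.08, adjusted p = 1.76e-11). Ankrd1, whose window holds GGAATG at 2 places, had 798, 832 and 786 CPM in hβ3 and 166, 153 and 116 CPM in pMx cultures (2.46 ± 0.12, adjusted p = 1.27e-08). Ctgf had 40.4, 38.4 and 40.9 CPM in hβ3 and 7.18, 5.41 and 3.68 CPM in pMx cultures (2.88 ± 0.19, adjusted p = 6.20e-08). All 3 genes were high in every hβ3 culture with no overlap. In the fit over 18 libraries Ctgf (adjusted p = 0.216) and Ankrd1 (0.204) were not called, while Cyr61 was. Ankrd1 is also a heart gene, and the part of the heart transcripts in its values was not tested. The actin-binding protein calponin-2 (Cnn2) had 729, 756 and 743 CPM in hβ3 and 169.8, 176 and 181 CPM in pMx cultures (2.06 ± 0.07, adjusted p = 3.68e-11), and the LIM protein gene Ajuba had 161, 127 and 159 CPM in hβ3 and 54.8, 58.9 and 47.1 CPM in pMx cultures (1.45 ± 0.11, adjusted p = 2.01e-07). β-actin (Actb) had 14698, 17128 and 14623 CPM in hβ3 and 9173, 9544 and 10012 CPM in pMx cultures (0.68 ± 0.08, adjusted p = 2.12e-05). For these 3 genes too the lowest hβ3 culture was above the highest pMx culture. The ectonucleotidase CD73 (Nt5e) was lower, with 29.8, 26.8 and 26.1 CPM in hβ3 and 112, 123 and 103 CPM in pMx cultures (-2.05 ± 0.10, adjusted p = 1.16e-09).

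Of 32 immediate-early and MAPK output genes, 27 were tested, and 9 were higher and 7 lower in hβ3 cells (median 0.09). The AP-1 subunits Fosl1, with 111, 117 and 125 CPM in hβ3 and 39.3, 43.4 and 53.6 CPM in pMx cultures (1.35 ± 0.11, adjusted p = 2.83e-07), and Fosl2, with 59.2, 57.5 and 59 CPM in hβ3 and 25.3, 30.2 and 26.3 CPM in pMx cultures (1.08 ± 0.10, adjusted p = 1.63e-06), were higher. The ephrin receptor Epha2 had 1175, 1238 and 1211 CPM in hβ3 and 678, 698 and 682 CPM in pMx cultures (0.80 ± 0.07, adjusted p = 7.18e-07). Feedback inhibitors of ERK signalling were among the lower genes. The phosphatase Dusp2 had 4.85, 4.03 and 5.96 CPM in hβ3 and 22, 22.7 and 24.5 CPM in pMx cultures (-2.24 ± 0.17, adjusted p = 9.85e-08). Dusp6 had 285, 301 and 279 CPM in hβ3 and 440.3, 435 and 434 CPM in pMx cultures (-0.61 ± 0.07, adjusted p = 1.53e-05), and Spry2 had 38.5, 37.9 and 42.4 CPM in hβ3 and 58.1, 59.3 and 64.2 CPM in pMx cultures (-0.63 ± 0.10, adjusted p = 1.77e-04). None of the 3 overlapped between the lines, and in the 18-library fit the adjusted p was 0.0817 for Dusp6 and 0.0676 for Spry2. Egr1 did not pass, with 17.9, 18.8 and 25.2 CPM in hβ3 and 14.3, 16.9 and 17.7 CPM in pMx cultures (0.32 ± 0.15, adjusted p = 0.149). Ccdc85b shares bases with Fosl1.

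**Figure D3:**
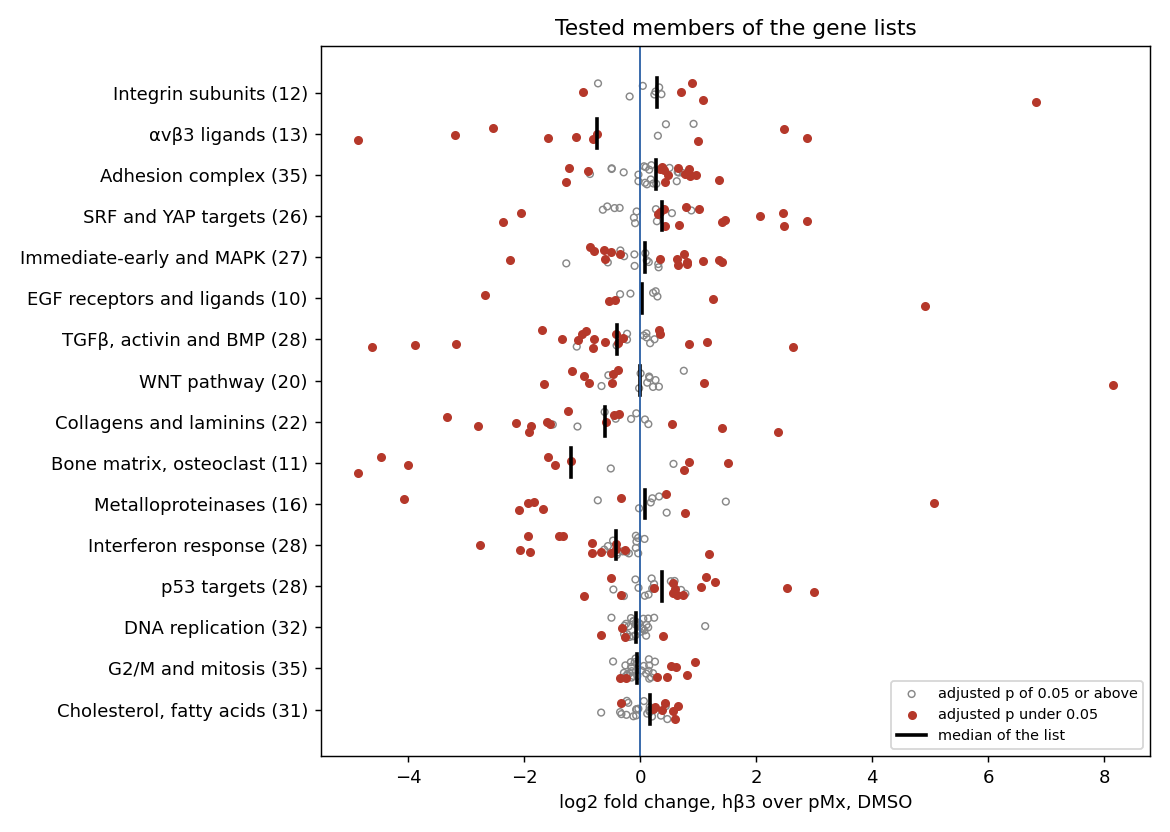
Log2 difference (hβ3 minus pMx in DMSO) of each tested gene of the pathway lists, 1 row per list with the number tested, filled points for genes called at an adjusted p under 0.05, open points for the others and a bar at the list median. The bone and collagen lists lie mostly below 0, with medians of -1.18 and -0.60, and the SRF and YAP list mostly above 0, with a median of 0.37.

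Of 16 genes for EGF receptors and their ligands, 10 were tested, and 2 were higher and 3 lower in hβ3 cells (median 0.03). The ligands moved in both directions. Beside Tgfa, the heparin-binding ligand Hbegf was higher, with 211, 189 and 205 CPM in hβ3 and 76.3, 87.1 and 86.3 CPM in pMx cultures (1.26 ± 0.09, adjusted p = 4.31e-08). Amphiregulin (Areg) was lower, with 189, 199 and 186 CPM in hβ3 and 247, 288 and 285 CPM in pMx cultures (-0.53 ± 0.08, adjusted p = 1.97e-04, and 0.345 with 18 libraries). Betacellulin (Btc) was lower as well, with 0.346, 0.496 and 0.497 CPM in hβ3 and 3.12, 2.8 and 2.71 CPM in pMx cultures (-2.67 ± 0.35, adjusted p = 4.67e-05). The ranges of all 4 ligands were separate, which their choice by small p or by the rule favours.

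Of 43 genes of TGFβ, activin and BMP signalling, 28 were tested, and 5 were higher and 14 lower in hβ3 cells (median -0.39), with 3 higher without hβ3 culture 3 or without pMx culture 2. Ligands differed in both directions. Bmp2 had 8.17, 9.36 and 11.3 CPM in hβ3 and 86, 89 and 83.1 CPM in pMx cultures (-3.18 ± 0.12, adjusted p = 7.95e-11), while Inhba, which encodes the βA chain of activin, had 38.9, 38.6 and 57.5 CPM in hβ3 and 22, 21.1 and 17 CPM in pMx cultures (1.15 ± 0.17, adjusted p = 2.16e-04). Inhba was thus the higher and Inhbb the lower activin chain in hβ3 cells. Of the target genes, Id4, an inhibitor of bHLH factors that BMP signalling induces, had 12.7, 14.7 and 11.3 CPM in hβ3 and 187, 197 and 180.0 CPM in pMx cultures (-3.88 ± 0.11, adjusted p = 5.17e-12). Id1 had 51.1, 39.7 and 48 CPM in hβ3 and 75.8, 82.3 and 79.2 CPM in pMx cultures (-0.79 ± 0.10, adjusted p = 4.40e-05), and Id2 had 31.2, 33.7 and 24.8 CPM in hβ3 and 51, 52 and 52 CPM in pMx cultures (-0.81 ± 0.12, adjusted p = 1.11e-04). The inhibitory SMAD gene Smad6 had 2.42, 2.29 and 2.48 CPM in hβ3 and 4.59, 4.46 and 4.51 CPM in pMx cultures (-0.93 ± 0.22, adjusted p = 0.00619). Id1, Id2 and Smad6 had separate ranges but were not called in the 18-library fit (adjusted p 0.0635 for Id1, 0.086 for Id2 and 0.562 for Smad6). Id3 had 151, 126 and 129 CPM in hβ3 and 139, 164 and 165 CPM in pMx cultures (-0.23 ± 0.10, adjusted p = 0.0976), and Smad7 had 101, 118 and 98.3 CPM in hβ3 and 99.2, 102 and 99.5 CPM in pMx cultures (0.06 ± 0.09, adjusted p = 0.676), and neither passed. Overlapping genes of unresolved strand lie at Id4 and Ctgf.

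Of 42 WNT pathway genes, 20 were tested, and 2 were higher and 7 lower in hβ3 cells (median -0.01). Beside Wnt7a, Wnt5a had 2.42, 3.91 and 1.63 CPM in hβ3 and 1.56, 1.15 and 1.03 CPM in pMx cultures, and its call (adjusted p = 0.0368) was lost in the 18-library fit (adjusted p = 0.506) and without single cultures, so the higher count was 1 without hβ3 culture 1 or 2 and without pMx culture 2 or 3. Receptor genes were among the 7 lower. The frizzled receptors Fzd1, with 18.1, 21.9 and 17.3 CPM in hβ3 and 39.9, 34.1 and 36.8 CPM in pMx cultures (-0.96 ± 0.12, adjusted p = 3.75e-05), and Fzd3, with 21.1, 21.5 and 22.7 CPM in hβ3 and 40.8, 42 and 36.8 CPM in pMx cultures (-0.89 ± 0.11, adjusted p = 2.32e-05), did not overlap between the lines. The R-spondin receptor Lgr6 had 14.4, 14.1 and 13.3 CPM in hβ3 and 31.9, 34.7 and 26.4 CPM in pMx cultures (-1.17 ± 0.13, adjusted p = 9.84e-06). The WNT antagonist Apcdd1 had 153, 173 and 169 CPM in hβ3 and 208, 216 and 212 CPM in pMx cultures (-0.38 ± 0.08, adjusted p = 0.00213).

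NOTCH genes were gathered into a list of 16 after their values were seen, and of the 12 tested 1 was higher and 6 lower in hβ3 cells (median -0.85). NOTCH receptors are cut on binding a ligand of a neighbouring cell, and the freed domain acts with RBPJ. Of the receptors, Notch1 (chromosome 2, 26457903 to 26516663, minus strand) had 6.1, 5.33 and 5.82 CPM in hβ3 and 50.8, 48.3 and 47.9 CPM in pMx cultures (-3.11 ± 0.12, adjusted p = 1.11e-10). Notch3 had 1.45, 1.61 and 1.7 CPM in hβ3 and 13, 11.8 and 8.64 CPM in pMx cultures (-2.82 ± 0.23, adjusted p = 2.80e-07, and 0.0619 with 18 libraries). Notch2 was the member that was higher, with 534, 496 and 532 CPM in hβ3 and 444, 424 and 403 CPM in pMx cultures (0.28 ± 0.08, adjusted p = 0.0125), and it lost the call without pMx culture 2 and in the 18-library fit (adjusted p = 0.364). The ligand gene Jag1 had 79.9, 74 and 83.7 CPM in hβ3 and 227, 219 and 204 CPM in pMx cultures (-1.47 ± 0.09, adjusted p = 7.32e-09). The ubiquitin ligase gene Neurl1b, whose product acts on NOTCH ligands, had 20, 21.1 and 23.3 CPM in hβ3 and 223, 192 and 199 CPM in pMx cultures (-3.27 ± 0.10, adjusted p = 8.37e-12). The target gene Hes1 had 33.7, 38.1 and 33.1 CPM in hβ3 and 67.3, 65.9 and 75.2 CPM in pMx cultures (-1.01 ± 0.10, adjusted p = 2.60e-06), and Nrarp had 17.7, 20.9 and 15 CPM in hβ3 and 23.8, 32.2 and 29.3 CPM in pMx cultures (-0.69 ± 0.15, adjusted p = 0.00284). Each of these genes except Notch2 was lower in all 3 hβ3 cultures than in any pMx culture. Rbpj itself varied widely, with 31, 62.2 and 26.3 CPM in hβ3 and 46.7, 58.6 and 43.7 CPM in pMx cultures, and did not pass (-0.33 ± 0.39, adjusted p = 0.607).

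**Figure D4:**
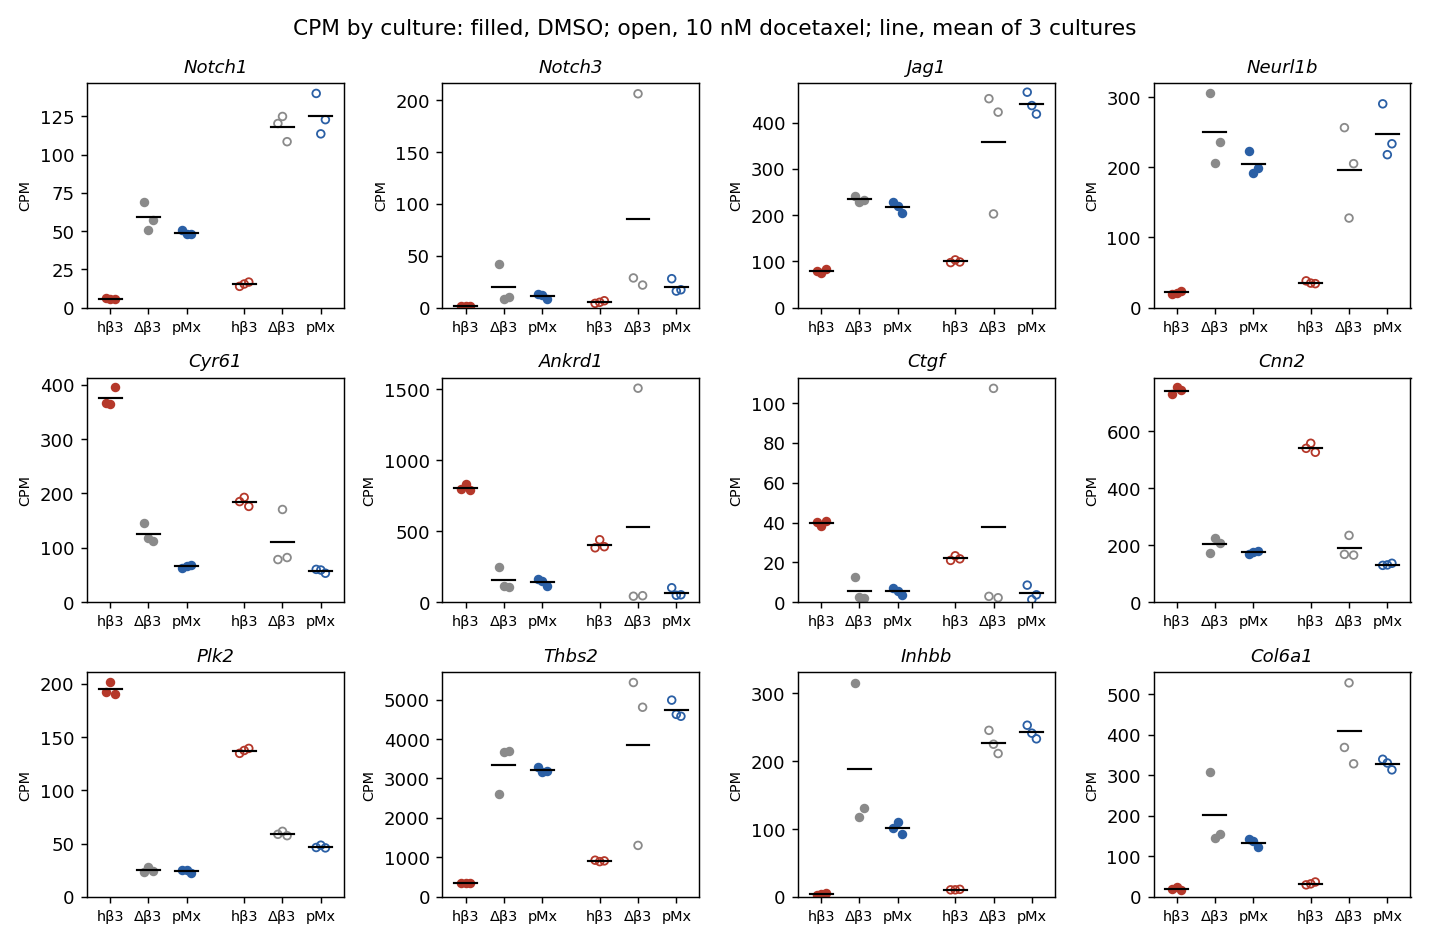
CPM of 12 genes in all 6 groups of the series, hβ3, Δβ3 and pMx cells in DMSO (filled points) and in 10 nM docetaxel (open points), 1 point per culture and a line at the mean of 3 cultures. Notch1, Neurl1b, Thbs2 and Inhbb are lowest in the hβ3 cultures in both treatments, and Cyr61, Cnn2 and Plk2 highest in them; Ankrd1, Ctgf and Notch3 are highest in 1 Δβ3 docetaxel culture.

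Of 36 collagen and laminin chain genes, 22 were tested, and 3 were higher and 11 lower in hβ3 cells (median -0.60). Collagen VI, a filamentous collagen of the pericellular matrix, was lower: Col6a1 had 18.1, 23.6 and 16.7 CPM in hβ3 and 142, 137 and 122 CPM in pMx cultures (-2.79 ± 0.13, adjusted p = 5.37e-10), and Col6a2 had 0.554, 0.496 and 0.142 CPM in hβ3 and 4.07, 5.35 and 2.84 CPM in pMx cultures (-3.34 ± 0.41, adjusted p = 2.53e-05). The Col6a2 fold rests on few counts in hβ3 cultures. The basement membrane chain Col4a6 had 42.3, 40.9 and 40.9 CPM in hβ3 and 162, 154 and 148 CPM in pMx cultures (-1.92 ± 0.09, adjusted p = 3.79e-10), and Col18a1, the source of endostatin, had 22.3, 21 and 20.3 CPM in hβ3 and 49.9, 49 and 50.1 CPM in pMx cultures (-1.25 ± 0.10, adjusted p = 3.26e-07). None of these chains overlapped between the lines. Col7a1, the anchoring fibril collagen, was higher, with 854, 662 and 810.4 CPM in hβ3 and 279, 298 and 288 CPM in pMx cultures (1.41 ± 0.09, adjusted p = 3.40e-08). Col3a1, a fibroblast marker, had 10.9, 12.5 and 8.94 CPM in hβ3 and 42.6, 32.5 and 18.9 CPM in pMx cultures (-1.55 ± 0.31, adjusted p = 0.0113), lost its call without any one of the hβ3 cultures, and ran with the heart transcripts among the pMx cultures.

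Matrix-degrading enzymes and their inhibitors were mixed. Of 31 metalloproteinase and inhibitor genes, 16 were tested, and 3 were higher and 6 lower in hβ3 cells (median 0.08). Beside Mmp3, the aggrecanase Adamts4 had 3.81, 2.54 and 3.83 CPM in hβ3 and 14.9, 15.7 and 12.1 CPM in pMx cultures (-2.09 ± 0.20, adjusted p = 2.14e-06), and the inhibitor Timp3 had 6.1, 6.57 and 4.97 CPM in hβ3 and 23.7, 21.7 and 21.8 CPM in pMx cultures (-1.94 ± 0.15, adjusted p = 2.16e-07). Both had separate ranges. Of 18 genes of plasminogen activation and protease receptors, 10 were tested, and 2 were higher and 3 lower (median -0.03). The protease inhibitor gene Serpine2 was lower, with 1.8, 0.744 and 1.49 CPM in hβ3 and 13.1, 13.4 and 12.4 CPM in pMx cultures (-3.29 ± 0.26, adjusted p = 1.72e-07). Tissue plasminogen activator (Plat) had 4.92, 4.34 and 4.47 CPM in hβ3 and 14.2, 16.2 and 16.5 CPM in pMx cultures (-1.79 ± 0.16, adjusted p = 1.02e-06). Timp3, Adamts4 and several other genes named here share bases with another gene (Syn3 at Timp3).

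Genes that act in bone were listed because αvβ3 is linked with bone metastasis. Of 24 genes of bone matrix and osteoclast regulation, 11 were tested, and 3 were higher and 6 lower in hβ3 cells (median -1.18). Osteoprotegerin (Tnfrsf11b), the decoy receptor that blocks osteoclast formation, had 0.139, 0.496 and 0.497 CPM in hβ3 and 5.97, 5.6 and 6.83 CPM in pMx cultures (-4.00 ± 0.34, adjusted p = 5.37e-07). Its hβ3 values rest on few counts, so the fold is uncertain. Csf1, a growth factor of macrophages and osteoclast precursors, had 12.9, 12.8 and 12.1 CPM in hβ3 and 3.98, 4.2 and 4.9 CPM in pMx cultures (1.51 ± 0.17, adjusted p = 1.09e-05). The endopeptidase Phex had 82.4, 90.4 and 82.7 CPM in hβ3 and 211, 194 and 169.6 CPM in pMx cultures (-1.18 ± 0.09, adjusted p = 2.18e-07). Mgp, Dmp1, Spp1 and Jag1, given above, were the other lower members, and all 4 had lower values in every hβ3 culture than in any pMx culture.

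Of 21 keratins, structural proteins of epithelial cells, 6 were tested, and 0 were higher and 2 lower in hβ3 cells (median -0.14). Krt8 was lower (-0.34 ± 0.08, adjusted p = 0.00378), but it lost the call without pMx culture 2 and in the 18-library fit (adjusted p = 0.595). Krt18 had 941, 957 and 889 CPM in hβ3 and 942, 1078 and 1044 CPM in pMx cultures (-0.15 ± 0.08, adjusted p = 0.165). Of 25 genes of epithelial-mesenchymal transition 12 were tested, and 3 were higher and 2 lower (median 0.04). N-cadherin (Cdh2) had 486, 555 and 559.5 CPM in hβ3 and 252, 240.4 and 236 CPM in pMx cultures (1.12 ± 0.08, adjusted p = 7.79e-08). The tight junction gene Cldn1 had 17.9, 19.8 and 15.9 CPM in hβ3 and 3.98, 5.1 and 6.19 CPM in pMx cultures (1.78 ± 0.18, adjusted p = 3.10e-06), and the repressor Snai2 had 12.7, 12.6 and 16 CPM in hβ3 and 3.29, 5.35 and 7.29 CPM in pMx cultures (1.34 ± 0.23, adjusted p = 7.47e-04). A junction gene, a mesenchymal cadherin and a repressor of epithelial genes were thus higher together, with no overlap between the lines. Twist2 was lower, with 24, 26.6 and 29.7 CPM in hβ3 and 53.1, 55.6 and 62.7 CPM in pMx cultures (-1.11 ± 0.11, adjusted p = 2.74e-06, and 0.0669 with 18 libraries). Cdh1 did not pass (0.63 ± 0.39, adjusted p = 0.265). Of 16 S100 genes 10 were tested, and 4 were higher and 1 lower (median 0.21). S100a11, whose window carries TGAGTCA at 2 places, had 275, 274 and 321 CPM in hβ3 and 66.9, 77.5 and 95 CPM in pMx cultures (1.84 ± 0.12, adjusted p = 1.09e-07). Of 18 regulators of G protein signalling 8 were tested, with 1 higher and 0 lower (median -0.09). It was Rgs16, with 43.1, 46.1 and 50.2 CPM in hβ3 and 12.2, 8.15 and 9.35 CPM in pMx cultures (2.22 ± 0.15, adjusted p = 3.04e-08).

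Of 48 genes of the interferon response, 28 were tested, and 1 was higher and 13 lower in hβ3 cells (median -0.41), and without hβ3 culture 1 the lower count was 8. The deISGylase Usp18 had 4.09, 3.16 and 2.06 CPM in hβ3 and 13.2, 9.74 and 11.5 CPM in pMx cultures (-1.90 ± 0.24, adjusted p = 2.50e-05). The guanylate-binding protein gene Gbp2 had 22, 24.5 and 22.7 CPM in hβ3 and 40.2, 38.8 and 42 CPM in pMx cultures (-0.82 ± 0.11, adjusted p = 3.69e-05), and Rtp4 had 4.92, 6.14 and 3.97 CPM in hβ3 and 12, 13.4 and 13.7 CPM in pMx cultures (-1.39 ± 0.19, adjusted p = 5.45e-05). Ifi44 had 0.485, 0.372 and 0.284 CPM in hβ3 and 2.6, 3.18 and 2 CPM in pMx cultures (-2.76 ± 0.40, adjusted p = 1.04e-04). All 4 had separate ranges. Of 17 genes of MHC class I presentation 11 were tested, and 2 were higher and 0 lower (median -0.11), with 1 higher without any one of the pMx cultures. Among all tested symbols 13.4% were higher and 12.9% lower. The transactivator Nlrc5 had 9.56, 10.2 and 9.58 CPM in hβ3 and 5.8, 5.41 and 6.32 CPM in pMx cultures (0.73 ± 0.17, adjusted p = 0.00521), while β2-microglobulin (B2m) had 479.8, 671 and 464 CPM in hβ3 and 395, 416 and 453 CPM in pMx cultures and did not pass (0.34 ± 0.13, adjusted p = 0.0965).

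Of 41 genes for chemokines and myeloid factors 17 were tested, and 6 were higher and 6 lower in hβ3 cells (median 0.55). The NF-κB feedback genes Tnfaip3, with 5.68, 4.71 and 5.46 CPM in hβ3 and 1.3, 0.382 and 0.193 CPM in pMx cultures (3.16 ± 0.44, adjusted p = 1.37e-04), and Nfkbia, with 105, 107 and 111 CPM in hβ3 and 61.2, 58.8 and 64.2 CPM in pMx cultures (0.79 ± 0.08, adjusted p = 5.23e-06), were higher. Of the 6 lower genes, the leukocyte adhesion molecule Vcam1 had 38.4, 46.7 and 37.7 CPM in hβ3 and 98.8, 103 and 97.6 CPM in pMx cultures (-1.30 ± 0.10, adjusted p = 1.62e-07). The membrane-bound chemokine Cx3cl1 had 5.54, 9.3 and 7.1 CPM in hβ3 and 27.4, 26.9 and 28.2 CPM in pMx cultures (-1.92 ± 0.17, adjusted p = 6.29e-07). The cytokine Tslp had 4.5, 2.48 and 3.76 CPM in hβ3 and 19.6, 22.7 and 25.3 CPM in pMx cultures (-2.68 ± 0.20, adjusted p = 1.19e-07), and the angiogenic factor Vegfa had 0.554, 0.992 and 1.14 CPM in hβ3 and 2.86, 3.31 and 3.74 CPM in pMx cultures (-1.90 ± 0.32, adjusted p = 4.65e-04). For each of these 4 genes the highest hβ3 culture was below the lowest pMx culture.

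Of 34 p53 target genes 28 were tested, and 11 were higher and 3 lower in hβ3 cells (median 0.38), with 1 lower without pMx culture 1 or pMx culture 2. Among all tested symbols 13.4% were higher and 12.9% lower. Plk2 (chromosome 13, 110395046 to 110400844, plus strand), a stress-responsive polo-like kinase, had 192, 202 and 191 CPM in hβ3 cultures and 24.8, 25.1 and 22.2 CPM in pMx cultures. The lines were far apart, with a log2 difference of 3.00 ± 0.09 (95% interval 2.81 to 3.20, adjusted p = 8.37e-12). The pro-apoptotic BH3 gene Pmaip1, which encodes Noxa, had 20.6, 20.8 and 21.1 CPM in hβ3 and 3.98, 2.99 and 3.68 CPM in pMx cultures (2.54 ± 0.16, adjusted p = 2.56e-08). Perp had 106, 109 and 113 CPM in hβ3 and 54.1, 47.1 and 47 CPM in pMx cultures (1.13 ± 0.09, adjusted p = 2.70e-07, and 0.0828 with 18 libraries). The mTOR inhibitor gene Ddit4 was lower, with 53.3, 56 and 57 CPM in hβ3 and 106, 114 and 102 CPM in pMx cultures (-0.97 ± 0.09, adjusted p = 8.26e-07). The arrest gene Cdkn1a, also on the list, was not called.

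Of 40 S phase and DNA replication genes 32 were tested, and 1 was higher and 3 lower in hβ3 cells (median -0.07), with 5 lower without hβ3 culture 2. The helicase subunit Mcm7 had 429, 425 and 414 CPM in hβ3 and 527, 509 and 520.3 CPM in pMx cultures (-0.31 ± 0.07, adjusted p = 0.00401, and 0.42 with 18 libraries). Of 41 G2/M and mitosis genes 35 were tested, and 6 were higher and 2 lower (median -0.05), beside 26.3% of all tested symbols called in either direction. Mki67, the Ki-67 proliferation marker, had 1398, 1157 and 1444 CPM in hβ3 and 879, 817 and 890.4 CPM in pMx cultures (0.61 ± 0.09, adjusted p = 1.12e-04, and 0.0705 with 18 libraries). The transcription factor Mybl2 had 104, 118 and 110.0 CPM in hβ3 and 60.3, 62.4 and 64.9 CPM in pMx cultures (0.80 ± 0.09, adjusted p = 5.80e-06). The ranges of Mki67 and Mybl2 were separate between the lines. Of 18 tubulin genes and microtubule regulators, the targets or neighbours of docetaxel, 14 were tested, and 5 were higher and 2 lower (median 0.14), with 3 higher without hβ3 culture 1, pMx culture 1 or pMx culture 2. The class III β-tubulin gene Tubb3, an isotype known for its link with taxane resistance, had 171, 175 and 165 CPM in hβ3 and 64, 75.2 and 67.2 CPM in pMx cultures (1.29 ± 0.09, adjusted p = 3.76e-08). Tubb2b had 8.17, 8.87 and 7.24 CPM in hβ3 and 2.34, 1.59 and 2.19 CPM in pMx cultures (1.98 ± 0.22, adjusted p = 9.81e-06). The microtubule destabiliser stathmin (Stmn1) was lower, with 57, 60.7 and 57.8 CPM in hβ3 and 76, 100.1 and 101 CPM in pMx cultures (-0.68 ± 0.11, adjusted p = 2.56e-04, and 0.109 with 18 libraries).

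Values of the Δβ3 cells, which carry integrin β3 without signalling function, were set beside those of hβ3 and pMx cells in DMSO. The comparisons share libraries, so each is given on its own. Δβ3 culture 1 stood apart, with 3962 CPM of heart transcripts and 41.5% of its counts on Rn45s, so tests are given with and without it. Between hβ3 and Δβ3 cells 830 of 10653 symbols (7.79%) were called, and 2372 without Δβ3 culture 1. Leaving out another culture gave 245 (hβ3 1), 324 (hβ3 2), 257 (hβ3 3), 461 (Δβ3 2) or 436 (Δβ3 3). Wnt7a had 1.68, 0.155 and 0.433 CPM in Δβ3 cultures, close to the 0.433, 0.637 and 0.258 CPM of pMx cultures, and hβ3 minus Δβ3 was 7.43 ± 0.60 on the log2 scale (adjusted p = 8.11e-04), or 8.77 ± 0.23 (adjusted p = 3.10e-11) without that culture. Plk2 had 23, 28 and 24.4 CPM in Δβ3 cultures, and hβ3 minus Δβ3 was 2.90 ± 0.14 (adjusted p = 1.30e-04), or 2.88 ± 0.12 (adjusted p = 9.51e-10) without it. S100a7a had 0.789, 1.16 and 0.865 CPM, Tgfa 1.38, 1.63 and 1.56 CPM and Sdpr 215, 153 and 156 CPM in Δβ3 cultures. For all 5 genes every Δβ3 culture was far below every hβ3 culture. Of the genes lower in hβ3 cells, Thbs2 had 2613, 3668 and 3708 CPM in Δβ3 cultures and hβ3 minus Δβ3 was -3.28 ± 0.16 (adjusted p = 1.49e-04), or -3.39 ± 0.09 (adjusted p = 3.10e-11) without that culture. Notch1 had 68.9, 50.8 and 57.3 CPM, Mmp3 53.5, 88.2 and 85.4 CPM and Inhbb 315, 118 and 131 CPM in Δβ3 cultures, with Inhbb highest in culture 1.

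Cyr61 had 365, 365 and 395 CPM in hβ3, 145, 119 and 112 CPM in Δβ3 and 62.3, 67.1 and 69.1 CPM in pMx cultures, a middle level in Δβ3 cells with no overlap among the 3 lines. The difference hβ3 minus Δβ3 was 1.53 ± 0.15 (adjusted p = 0.00157), or 1.69 ± 0.10 (adjusted p = 3.02e-08) without Δβ3 culture 1, and Δβ3 minus pMx was 0.93 ± 0.15 (adjusted p = 0.672), or 0.79 ± 0.09 (adjusted p = 5.59e-04) without it. Between Δβ3 and pMx cells 2 of 10608 symbols (0.0189%) were called, Itgb3 (6.66 ± 0.49, adjusted p = 0.0146) and Egr1 (3.03 ± 0.17, adjusted p = 0.00465), and 474 had an unadjusted p under 0.05. DESeq2 called 17, and 33 were called without Δβ3 culture 1, 1 without Δβ3 culture 2 or 3 and 0 without pMx culture 1 or 2. The immediate-early gene Egr1 had 17.9, 18.8 and 25.2 CPM in hβ3, 109.6, 145 and 144 CPM in Δβ3 and 14.3, 16.9 and 17.7 CPM in pMx cultures, so the Δβ3 cells were the high line. The number of calls thus changed with the cultures left out, of either line, and the cause was not tested. Few calls do not show that Δβ3 and pMx cells are alike.

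The same lines were compared after 24 h in 10 nM docetaxel, in 6 libraries that the DMSO comparison does not use. There 3328 of 10912 symbols (30.5%) were called. Of the 2835 symbols called in DMSO, 2781 were also tested in docetaxel, and 2586 of them (93.0%) had the same sign, against 7542 of 10465 (72.1%) of all symbols tested in both. In docetaxel 1855 were called in the same direction, which is 65.4% of the DMSO calls and 55.7% of the docetaxel calls, and 18 were called in the opposite direction. The median absolute log2 difference of the DMSO calls was 0.63 in DMSO and 0.50 in docetaxel. These symbols were selected on their DMSO values, which favours a smaller value in docetaxel. Over all tested symbols the median was 0.29 in DMSO and 0.32 in docetaxel. Wnt7a averaged 78 ± 2.39 CPM in hβ3 and 0.571 ± 0.424 CPM in pMx cultures in docetaxel (SD, n = 3 each; log2 difference 7.20 ± 0.23, adjusted p = 6.87e-09). Thbs2 averaged 911 ± 17.8 CPM in hβ3 and 4729.6 ± 224 CPM in pMx cultures (-2.40 ± 0.06, adjusted p = 1.38e-10). Notch1 averaged 15.3 ± 1.4 CPM in hβ3 and 125 ± 13.4 CPM in pMx cultures (-3.06 ± 0.11, adjusted p = 1.88e-09). In these 3 genes the direction and the call were the same in both treatments, in separate cultures of the same lines.

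**Figure D5:**
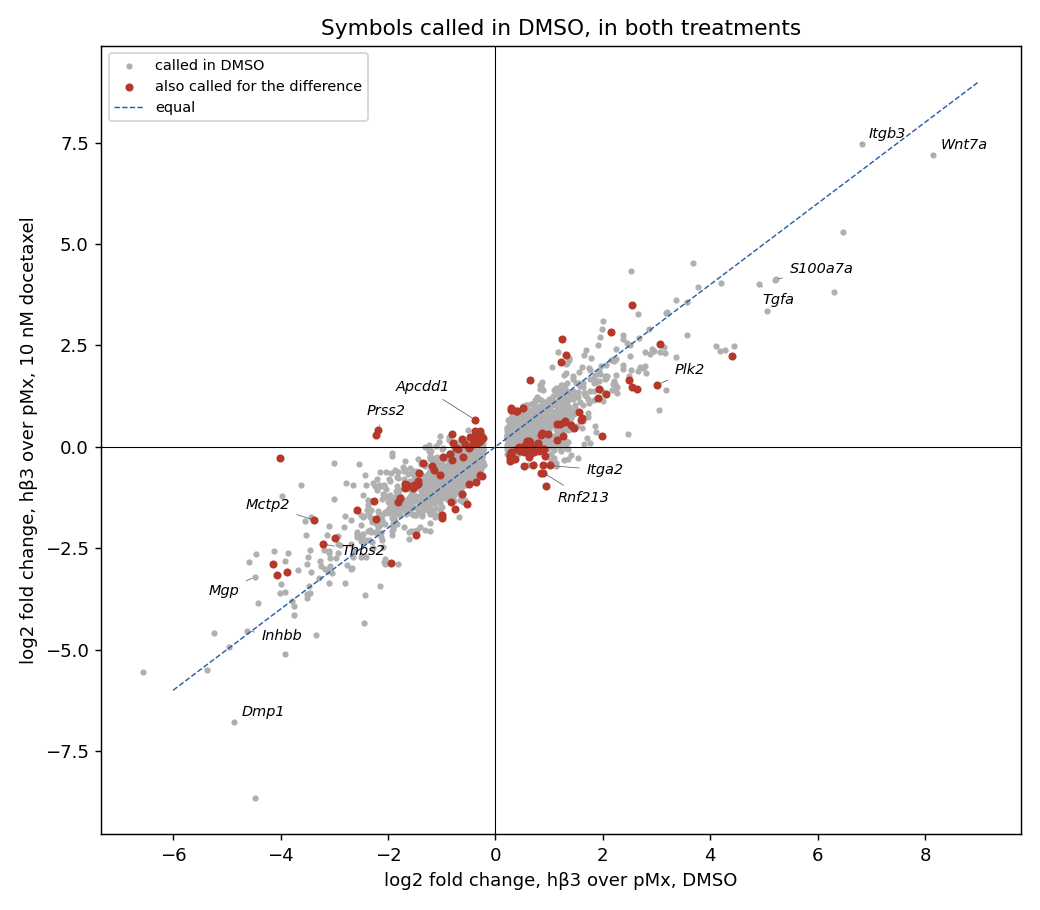
Log2 difference between hβ3 and pMx cells in docetaxel (vertical axis) against that in DMSO (horizontal axis) for the symbols called in DMSO, 1 point each, with red points for symbols also called for the change between treatments and a dashed line where both are equal. The 2 axes use separate libraries of the same lines, and Plk2 lies nearer to 0 in docetaxel than in DMSO.

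For some genes the difference between the lines itself differed between docetaxel and DMSO. The test of that change, over the 12 libraries, called 213 of 11646 symbols (1.83%), 150 of them among the DMSO calls. In the fit over all 18 libraries 2 were called, and DESeq2 called 422. Leaving out 1 culture moved the count by over 1.5 times for 8 of the 12, to 58 (pMx DMSO 2), 73 (hβ3 docetaxel 2), 78 (pMx docetaxel 3), 105 (hβ3 docetaxel 3), 111 (hβ3 DMSO 3), 129 (pMx DMSO 3), 139 (hβ3 DMSO 1) or 395 (hβ3 DMSO 2). Plk2 averaged 137 ± 2.33 CPM in hβ3 and 46.9 ± 1.36 CPM in pMx cultures in docetaxel, a smaller gap than in DMSO, and its change was -1.47 ± 0.11 (adjusted p = 2.67e-07). Cyr61 averaged 185 ± 8.27 CPM in hβ3 and 57.6 ± 3.79 CPM in pMx cultures (-0.82 ± 0.11, adjusted p = 2.98e-04). Both remained higher in hβ3 cells. Apcdd1 turned its sign, with 187 ± 2.16 CPM in hβ3 and 116 ± 5.35 CPM in pMx cultures in docetaxel (1.05 ± 0.10, adjusted p = 6.99e-06). Itga2 turned the other way, to 15.1 ± 0.446 CPM in hβ3 and 20.3 ± 1.62 CPM in pMx cultures (-1.33 ± 0.21, adjusted p = 0.00175), and Egr1 averaged 26.2 ± 0.713 CPM in hβ3 and 65 ± 11.2 CPM in pMx cultures (-1.65 ± 0.20, adjusted p = 1.17e-04). In the fit over all 18 libraries only Plk2 and Apcdd1 of these genes kept the call of a change.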

How the data were processed

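RNA of PyMT-BO1 cultures was sequenced, per the labels' protocols, after ribosomal RNA removal by hybridisation from 1 µg of total RNA, random hexamer priming and 13 PCR cycles, as single reads of 50 bases in 1 run. Raw read counts made by the authors were deposited for 63759 transcript models of 32699 symbols, 13170 of them with more than 1 model. A deposited column of model lengths, another kind of unit, enters no result. Per the submitters' processing notes FastQC, HISAT2, featureCounts and mm10 were used. No source used here gives versions, the annotation, the strand setting or how reads on several models were counted, so counts of genes with several models or an overlapping neighbour may miss or share reads.

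Counts were summed by symbol and fitted with edgeR 4.0.16 in R 4.3.3 (filterByExpr, TMM, robust quasi-likelihood F-test, two-sided, Benjamini-Hochberg over all tested symbols, called under 0.05). The 6 libraries of the comparison were fitted alone, as were the docetaxel and Δβ3 comparisons. The change between treatments used 12 libraries. SE is the absolute log2 difference divided by the square root of F, and intervals are 95%. For large folds with few counts in 1 line, this SE and its interval are too narrow. CPM values share TMM factors over 18 libraries. The scripts were tested on simulated data. There the test of the change between treatments missed some genes simulated with the largest fold, and its pass mark was lowered after this was seen. Totals of the 6 libraries of the comparison ran from 10313222 to 18961392 counts, which are reads, not unique molecules. The lowest total of the 18 libraries was 7972612, in pMx docetaxel culture 1.

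Coordinates are GENCODE M21 on mm10 (9478 of 10792 tested symbols matched), and promoter windows RefSeq GRCm38.p6. Genes were named by rule: the 14 largest increases and 14 largest decreases among called protein-coding symbols with a mean of at least 2 CPM and separate ranges, muscle markers left out, up to 4 members of each of 36 lists with the smallest p, a set named outright, and 6 symbols each for docetaxel and the change. A few genes are not reported here. Another 52 genes, among them the NOTCH genes, Sdpr, Ntn1, Ptk2, Bcar1, Zyx, Ajuba, Dusp6, Spry2, Wnt5a, Snai2, Ifi44, Vegfa, Vtn, Fn1, Col6a2, Id1 to Id3, Inhba, Csf1 and Spp1, were chosen after their values were seen. The comparison, lists and rule were chosen with earlier results of these data known. Alternatives were RLE scaling, no filter, DESeq2 1.42.0, non-robust fits, a replicate block, removal of Rn45s or muscle markers, the model with the most counts, fits over 18 or 16 libraries, and leaving out each library.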

Additional observations from a re-analysis of the deposited data

Results flagged for a closer look

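For 35 named genes the difference between hβ3 and pMx cells itself differed between docetaxel and DMSO (edgeR's quasi-likelihood test of the change over 12 libraries, adjusted p under 0.05). Values are the log2 difference in docetaxel minus that in DMSO. A negative value for a gene that was higher in hβ3 cells in DMSO is thus a smaller or a reversed difference in docetaxel. Itga2 and Apcdd1, for example, turned their sign. For 19 of them the call was kept without each single library and under every other alternative except the fit over all 18 libraries, in which Plk2 and Apcdd1 alone of the 35 were called, and except for Prss2 under DESeq2, which gave no adjusted p. Among these 19, genes higher in hβ3 cells in DMSO with a negative value were the kinase gene Plk2 (-1.47), Cyr61 (-0.82), Col7a1 (-0.86), the stress gene Ndrg1 (-0.90), Nfkbia (-0.70), Pmaip1 (-1.05), Itga2 (-1.33), the giant ubiquitin ligase gene Rnf213 (-1.53) and the tubulin genes Tubb2b (-1.71) and Tubb3 (-0.65). Genes lower in hβ3 cells in DMSO with a positive value were Thbs2 (0.81), Id4 (0.80), Ddit4 (0.73), Apcdd1 (1.05), the membrane protein gene Mctp2 (1.58), the trypsin gene Prss2 (2.61) and the helicase gene Mcm7 (0.49). Jag1 (-0.69) was lower in hβ3 cells in DMSO and further apart in docetaxel, and Egr1 (-1.65), not called in DMSO, averaged 26.2 CPM in hβ3 and 65.0 CPM in pMx cultures in docetaxel. Many named genes were picked for large differences or small p in DMSO, and some for the change itself. The change uses the same DMSO libraries, so this choice favours values opposite in sign to the DMSO difference.

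For the other 16 genes the call was lost without pMx DMSO culture 2, with adjusted p from 0.0532 to 0.160, and without any single library the adjusted p reached 0.163. These were Timp3 (-0.92), Sdpr (-0.53), Inhba (-0.98), Mmp3 (0.92), Foxc2 (-0.55), Notch2 (-0.54), Rfc5 (0.50), Scara5 (1.27), Gstm1 (0.80), Rrm2 (0.50), Nlrc5 (-0.85), Sec24a (-1.50), Vcl (-0.42), Gbp2 (-0.53), Egln3 (0.58) and Mki67 (-0.52). No cause of these changes was tested.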

How the results depend on the processing

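No called value of a named gene reversed its direction under any alternative. Of 199 named genes tested between hβ3 and pMx cells in DMSO, 167 were called, 113 of them under every alternative, and 54 lost the call under at least 1. Between hβ3 and pMx cells in DMSO the 2835 calls became 1095 (593 higher, 502 lower) in the fit over 18 libraries, and ran from 1970 (without pMx culture 2) to 3028 without single libraries. With 16 libraries, leaving out Δβ3 DMSO culture 1 and Δβ3 docetaxel culture 2, there were 3312, and DESeq2 gave 2716. In docetaxel 3328 became 1027 with 18 libraries, and 2404 to 3925 without single libraries. The 213 changes between treatments became 325 with no filter, 350 with the block, 2 with 18 libraries and 422 with DESeq2, 135 without robust estimation, and 58 to 395 without single libraries. Between hβ3 and Δβ3 cells 830 became 453 with the block, 1594 with 18 libraries, 2880 with 16, 1548 with DESeq2, and 245 to 2372 without single libraries. Between Δβ3 and pMx cells 2 became 1 with the block, 5 with 18 libraries, 41 with 16, 17 with DESeq2, and 0 to 33 without single libraries. The cause was not tested. The replicate numbers of the labels are not said to mark a shared day, so cultures were not treated as pairs. Deviations of same-numbered hβ3 and pMx cultures in DMSO correlated at 0.04, 0.09 and 0.21. Cultures with different numbers correlated at -0.16 to 0.09, and these values do not settle whether the cultures are pairs. With the replicate block 3047 symbols were called. Of the list of 40 heart genes, 27 were tested between hβ3 and pMx cells in DMSO, and 1 was higher and 2 lower (median -1.79). Among all tested symbols 13.4% were higher and 12.9% lower. The lower count of the heart list was 22 without robust estimation and 16 with the block. Genes with fewer than about 10 counts per library are limited by depth, and their folds are uncertain.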

Other observations

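Metabolic and stress gene lists are given here as values. Of 38 genes of glycolysis and hypoxia 28 were tested, and 8 were higher and 3 lower in hβ3 than in pMx cells in DMSO (median log2 difference 0.00, against 13.4% of all tested symbols higher and 12.9% lower). The stress gene Ndrg1 had 56.8, 62.7 and 63.7 CPM in hβ3 and 20.4, 19.6 and 19.3 CPM in pMx cultures (1.61 ± 0.10, adjusted p = 2.18e-08), and the glycolytic enzyme gene Pgam1 had 416, 432 and 375 CPM in hβ3 and 245, 255 and 249 CPM in pMx cultures (0.69 ± 0.08, adjusted p = 9.63e-06). The HIF prolyl hydroxylase gene Egln3 was lower, with 55.1, 50.8 and 71.4 CPM in hβ3 and 129, 125 and 130.2 CPM in pMx cultures (-1.13 ± 0.11, adjusted p = 2.98e-06). None of the 3 overlapped between the lines, and Vegfa and Ddit4, given above, were the other lower members. Of 35 genes of cholesterol and fatty acid synthesis 31 were tested, and 7 were higher and 1 lower (median 0.16), with 4 higher without pMx culture 2. Fatty acid synthase (Fasn) had 3574, 2904 and 3538 CPM in hβ3 and 2369, 2221 and 2081 CPM in pMx cultures (0.57 ± 0.09, adjusted p = 2.56e-04, and 0.0513 with 18 libraries). The desaturase Fads2 had 219.6, 296 and 231 CPM in hβ3 and 159, 152 and 156 CPM in pMx cultures (0.66 ± 0.10, adjusted p = 2.27e-04).

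Of 30 genes of amino acid supply and the ATF4 response 24 were tested, and 8 were higher and 4 lower in hβ3 cells (median 0.28). Chac1, which degrades glutathione, had 72.2, 70.9 and 74.3 CPM in hβ3 and 25.1, 30.3 and 30.5 CPM in pMx cultures (1.32 ± 0.10, adjusted p = 1.79e-07), and Phgdh, the entry enzyme of serine synthesis, had 553, 504 and 531 CPM in hβ3 and 344, 364 and 346 CPM in pMx cultures (0.57 ± 0.07, adjusted p = 3.81e-05). Of 34 NRF2 target genes 23 were tested, and 6 were higher and 8 lower (median -0.08), or 3 higher and 5 lower without pMx culture 2. Heme oxygenase 1 (Hmox1) had 145, 141 and 147 CPM in hβ3 and 33.8, 38.6 and 43.8 CPM in pMx cultures (1.88 ± 0.10, adjusted p = 2.81e-09), while the glutathione transferase Gstm1 had 11.9, 13.9 and 10.5 CPM in hβ3 and 29.9, 33.2 and 33.1 CPM in pMx cultures (-1.42 ± 0.13, adjusted p = 1.37e-06). The list thus held genes apart in both directions. Of 27 ABC transporters 20 were tested, and 4 were higher and 8 lower (median -0.24), with 2 higher without pMx culture 2 or 3. The drug exporter Abcc1 had 455, 425 and 433 CPM in hβ3 and 295, 292 and 281 CPM in pMx cultures (0.58 ± 0.07, adjusted p = 2.99e-05). The breast cancer resistance protein gene Abcg2 had 0.831, 0.992 and 1.28 CPM in hβ3 and 3.29, 4.2 and 3.74 CPM in pMx cultures (-1.87 ± 0.29, adjusted p = 1.92e-04), and the cholesterol exporter Abca1 had 17.8, 15 and 15.8 CPM in hβ3 and 58.9, 50.2 and 45.5 CPM in pMx cultures (-1.69 ± 0.13, adjusted p = 1.17e-07). All 3 transporters had separate ranges, Abcc1 higher and the other two lower in hβ3 cells.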
